A study of Arabidopsis thaliana with 8 samples.

Results

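The genes of the chloroplast and mitochondrial genomes of Arabidopsis thaliana were followed as the group of entries whose locus identifiers start with ATCG (chloroplast) or ATMG (mitochondrion). They number 279 of the 34133 entries in each deposited table, with 133 from the chloroplast and 146 from the mitochondrion. Seedlings of the Col-0 background were 10 days old and had grown on plates in long days, and their RNA was enriched with oligo(dT) beads before sequencing. The groups were mom1 (2 libraries), pial1/2, pial2, mom1pial2 and nrpe1 (1 library each), and wild type (WT, 2 libraries); the labels name the mutated genes but no alleles. The first set of libraries held mom1 replicate 1, pial1/2 and nrpe1, each tabulated by the authors against WT replicate 1. The second set held mom1 replicate 2, pial2 and mom1pial2, each tabulated against WT replicate 2. MOM1 is a nuclear protein of transcriptional gene silencing, the PIAL proteins are SUMO E3 ligase-like partners of it in the series title, and NRPE1 belongs to RNA polymerase V, a plant enzyme of RNA-directed DNA methylation.

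Chloroplasts keep a small genome that encodes core subunits of the photosystems, the cytochrome b6f complex, the ATP synthase, the NDH complex, the large subunit of Rubisco, part of the plastid ribosome and a bacterial-type RNA polymerase. Mitochondria encode subunits of the respiratory complexes, ribosomal parts and factors of cytochrome c maturation. Many chloroplast genes are transcribed in clusters. In both organelles short A tails added to RNA mark it for decay, whereas the long tails of nuclear mRNA stabilise it. Oligo(dT) beads are meant to select RNA with A tails, so values here are levels in a selected library and need not follow the levels in all organellar RNA.

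Values are the authors' FPKM, which are fragment counts scaled to transcript length and library size. The mutated genes were checked in their own tables. MOM1 had 1.61 FPKM in mom1 replicate 1 against 6.10 FPKM in WT replicate 1, 1.15 FPKM in mom1 replicate 2 against 4.90 FPKM in WT replicate 2, and 1.29 FPKM in mom1pial2 against 4.99 FPKM in WT replicate 2. PIAL2 had 1.96 FPKM in pial2 against 5.52 FPKM in WT replicate 2, and NRPE1 had 1.16 FPKM in nrpe1 against 4.61 FPKM in WT replicate 1. In pial1/2, PIAL1 had 11.3 FPKM against 11.7 FPKM in WT replicate 1 and PIAL2 had 4.79 FPKM against 6.47 FPKM, so RNA level did not separate that library from WT.

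The first-set tables listed all 279 organellar entries at 0, in the mutant and in the WT library alike. Of these, 278 carried the authors' status for too few alignments to test and 1 (ATMG01070) the status for low data. The second-set tables gave 140 entries a value in at least 1 library, 78 from the chloroplast and 62 from the mitochondrion. WT replicate 2 had 76 chloroplast and 50 mitochondrial entries above 0. Listing at 0 thus followed the set of libraries and not the genotype, and mom1, the only mutant in both sets, could be read for organellar entries from replicate 2 alone. All comparisons that follow have 1 library per group and no replicate check. They use the log2 ratio of FPKM + 1 in the mutant over WT replicate 2, over entries with at least 1 FPKM in either library, and this scale understates the change of low entries. The authors' q-values compare the 2 libraries of a table, not the genotypes. The mom1, pial2 and mom1pial2 tables share the WT library, so a high or low value there moves all 3 ratios.

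The highest FPKM belonged to very short entries. In WT replicate 2 the 5 with the highest FPKM were psbM, rpl32, a trnS entry (ATCG00090), psaJ and psbI, none longer than 159 bp. The order differed in pial2, where ATCG00470 (790 FPKM) lay above ATCG00090 (508 FPKM). Together the 5 held 85.1% of the summed chloroplast FPKM in mom1, 89.1% in pial2, 88.1% in mom1pial2 and 87.8% in WT replicate 2. The 4 protein-coding ones are shown to make their size visible, as the coding strand of the RefSeq chloroplast genome, with the start and stop codons in capitals. They lie at chrC:28707-28811 on the minus strand (psbM), and on the plus strand at chrC:113449-113607 (rpl32), chrC:66929-67063 (psaJ) and chrC:7583-7693 (psbI).
psbM: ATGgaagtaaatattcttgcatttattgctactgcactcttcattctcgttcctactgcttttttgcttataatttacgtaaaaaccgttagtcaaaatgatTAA
rpl32: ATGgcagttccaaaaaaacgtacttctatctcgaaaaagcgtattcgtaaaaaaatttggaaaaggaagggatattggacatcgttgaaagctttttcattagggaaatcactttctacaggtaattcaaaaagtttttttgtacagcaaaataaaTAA
psaJ: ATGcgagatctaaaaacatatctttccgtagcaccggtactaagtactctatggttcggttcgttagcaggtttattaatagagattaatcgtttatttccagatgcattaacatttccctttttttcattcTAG
psbI: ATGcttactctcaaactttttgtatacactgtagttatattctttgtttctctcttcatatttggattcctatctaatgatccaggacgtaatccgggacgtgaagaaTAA

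Within a library the FPKM of an entry are whole multiples of what 1 fragment is worth there, so the numbers of fragments could be recovered for 112 of the 126 organellar entries above 0 in WT replicate 2. One fragment was worth 25.3 FPKM at the median of the 13 shortest chloroplast entries so recovered and 0.0261 FPKM at the median of the 26 chloroplast entries of 1000 bp or more. The psbM entry, a small photosystem II subunit, was at 24282 FPKM in WT replicate 2 (mom1 table), from at least 319 fragments. The psbA entry, which encodes the D1 protein of the photosystem II reaction centre, was at only 28.2 FPKM in the same library, from 746 fragments. Levels of short and long entries are therefore not comparable in FPKM. Of the 112, 43 had fewer than 10 fragments in WT replicate 2 and 30 had 100 or more. Of the 45 mitochondrial entries among them, 31 had fewer than 10. Intervals given below for ratios of fragments are exact binomial (Clopper-Pearson) 95% intervals and cover counting error only.

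**Figure D1:**
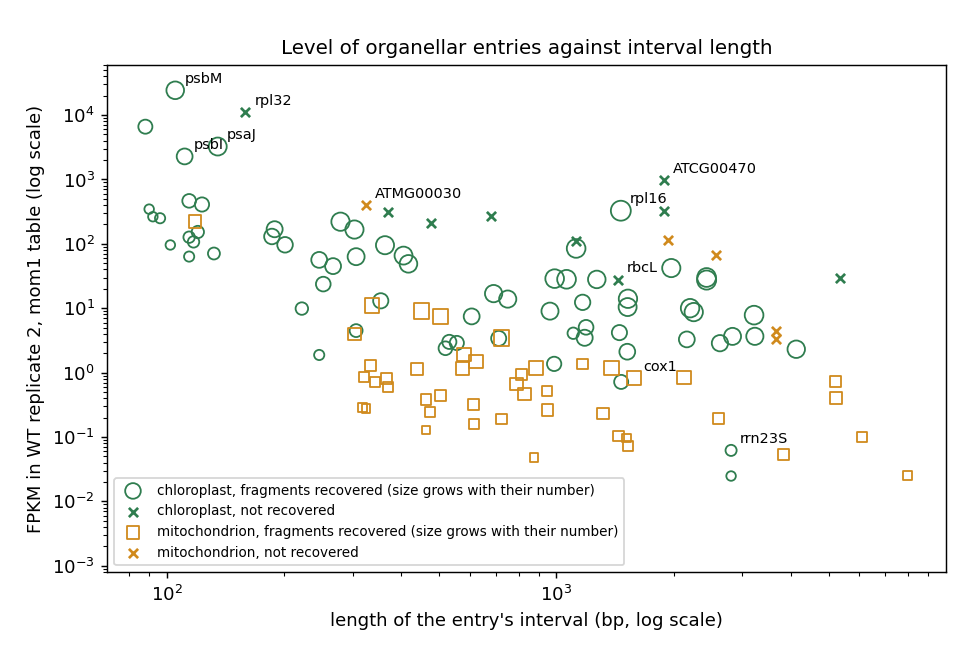
FPKM of organellar entries above 0 in WT replicate 2 (mom1 table) against the length of the entry's interval, both on log axes, with circles and squares growing with the number of recovered fragments and crosses where the number was not recovered. Entries shorter than 300 bp reach the highest FPKM, up to 24282 for psbM, and most mitochondrial entries lie below the chloroplast entries of the same length.

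Across the chloroplast, the median log2 ratio was -0.17 in mom1 (76 entries), -0.36 in pial2 (75 entries) and -0.18 in mom1pial2 (76 entries), against medians of 0.01 in each table over nuclear entries. In pial2, 63 of 75 chloroplast entries lay below 0, where 49.1% of all entries measured did. In mom1, 48 of 76 lay below 0 (48.3% of all entries), and in mom1pial2, 54 of 76 did (49.1% of all entries). Summed over the 67 chloroplast entries with recovered fragments, there were 10593 fragments in pial2 against 15916 in WT replicate 2, a log2 ratio of -0.51 (95% interval -0.54 to -0.47) after scaling for depth. The same sums were 12942 fragments in mom1 against 15916 in WT, a log2 ratio of -0.21 (-0.25 to -0.18). In mom1pial2 they were 11724 fragments against 15916 in WT, a log2 ratio of -0.27 (-0.30 to -0.23). Taken directly between mutants, without the WT library, chloroplast fragments in mom1pial2 over pial2 gave a log2 ratio of 0.24 (0.20 to 0.28), and in pial2 over mom1 -0.29 (-0.33 to -0.26). Over these 67 entries the pial2 library thus held fewer chloroplast fragments after scaling than the other 3 libraries, by more than counting error. The sums leave out chloroplast entries above 0 whose fragments were not recovered, among them rbcL, ndhJ and ndhK. Their log2 ratios of FPKM + 1 were 0.44, -0.48 and -0.31 in mom1 and -0.06, -0.64 and -0.43 in pial2. Spread between plants or cultures was not measured, and fewer chloroplast transcripts per cell cannot be told apart from fewer green cells or a lower adenylated share.

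By the authors' q-values below 0.05, the chloroplast counts were 2 of 76 entries tested in mom1, 15 of 75 in pial2 and 1 of 76 in mom1pial2, every one lower in the mutant. Over all entries tested, 1.36% were called lower in mom1, 1.6% in pial2 and 1.16% in mom1pial2. None of the chloroplast entries was called higher. Past 2-fold, 1 entry was lower and 7 were higher in mom1, where 0.997% and 1.18% of all entries measured were. In pial2, 7 were lower and 3 higher, beside 0.847% and 0.736% of all entries. In mom1pial2, 2 were lower and 4 higher, beside 0.862% and 1.08%. All of the higher ones were shorter than 300 bp. Over the 49 chloroplast entries of 300 bp or more, a length limit chosen after the values were seen, 35 lay below 0 in mom1, 45 in pial2 and 37 in mom1pial2, and the highest log2 ratio was 0.52, 0.39 and 0.38 in that order of tables.

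**Figure D2:**
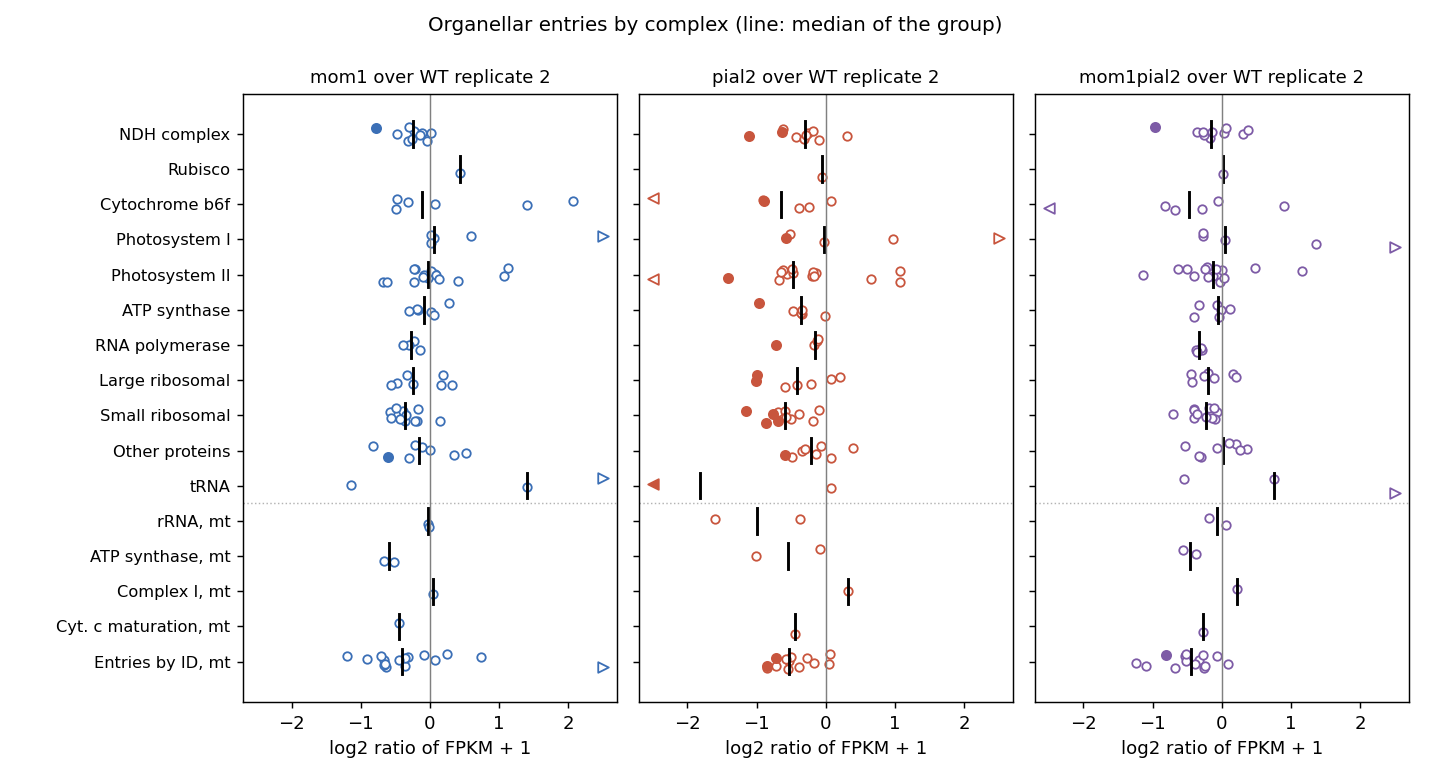
Log2 ratios of FPKM + 1 in the mutant over WT replicate 2 for the organellar entries measured, by complex, with 1 panel per table, a dot per entry, a black line at the group median, filled symbols for the authors' q below 0.05 and triangles at the edge for values beyond the axis. The groups below the dotted line are mitochondrial; in the pial2 panel 63 of 75 chloroplast entries lie left of 0.

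The ribosomal protein cluster that ends in rpoA held 7 of the 15 chloroplast calls in pial2. Its 9 entries include rps19, rpl22, rps3, rpl16, rpl14, rpl36 and rpoA, and all lie on the minus strand between positions 77901 and 84283 of the chloroplast genome; it was singled out after its values were seen. The rps genes encode proteins of the small and the rpl genes proteins of the large plastid ribosomal subunit, and rpoA encodes the alpha subunit of the plastid RNA polymerase. Of its 9 entries, 7 were called lower by the authors in pial2 and 0 in mom1 and in mom1pial2, while 1.6% of all entries were called lower in pial2. The difference between the tables was not tested over replicates.

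The rpl16 entry had 221 FPKM in mom1 against 327 FPKM in WT, 167 FPKM in pial2 against 333 FPKM in WT, and 247 FPKM in mom1pial2 against 334 FPKM in WT. Its fragments numbered 1284 in mom1, 957 in pial2 and 1326 in mom1pial2, against 2022 in WT. The log2 ratio in pial2 was -0.99 (q = 2.06e-07 in the authors' deposited table), and the other two mutants had q = 0.0683 (mom1) and q = 0.321 (mom1pial2) in the authors' deposited table. All 3 mutant libraries lay under WT, and pial2 lay lowest.

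The rpl14 entry had 224 FPKM in mom1 against 311 FPKM in WT, 156 FPKM in pial2 against 317 FPKM in WT, and 232 FPKM in mom1pial2 against 317 FPKM in WT. It was past 2-fold in pial2, with a log2 ratio of -1.01 (q = 2.03e-07 in the authors' deposited table). The genes rps19, rps3 and rpoA were called at log2 ratios between -0.87 (rps19) and -0.72 (rpoA) in pial2.

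The genes rpl22 and rpl36 were the 2 entries of the cluster not called in pial2. The rpl22 entry, whose interval also holds rps3, had 57.3 FPKM in pial2 against 86.4 FPKM in WT (q = 0.357 in the authors' deposited table). The rpl36 entry is 114 bp long and had 26 fragments in mom1, 18 in pial2 and 18 in mom1pial2, against 22 in WT, with an interval of the log2 ratio in pial2 from -1.19 to 0.76. Summed over the 7 entries with recovered fragments, the cluster gave log2 ratios of -0.48 in mom1 (-0.55 to -0.42), -0.86 in pial2 (-0.93 to -0.79) and -0.40 in mom1pial2 (-0.47 to -0.34). Chloroplast entries outside it gave -0.11 (-0.15 to -0.07), -0.38 (-0.42 to -0.34) and -0.21 (-0.25 to -0.17) in the same order of mutants.

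**Figure D3:**
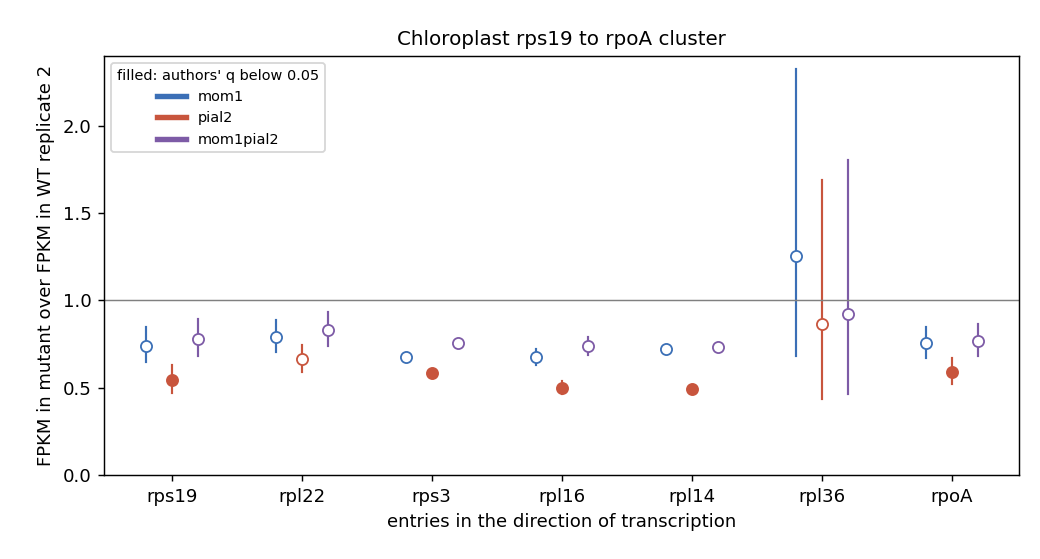
Ratio of FPKM in each mutant to FPKM in WT replicate 2 for 7 entries of the rps19 to rpoA cluster in the direction of transcription, with exact 95% counting intervals where fragments were recovered and filled dots for the authors' q below 0.05. The pial2 ratio is the lowest of the 3 at every entry shown; the intervals of rpl36 cross 1 in all 3 mutants.

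The rps19 gene marks the edge of what could be measured. The gene runs into the inverted repeat, which occurs in 2 copies in the chloroplast genome. In its sequence (chrC:84005-84283, minus strand, RefSeq), the 113 bases that occur again in the other copy are in capitals.
rps19: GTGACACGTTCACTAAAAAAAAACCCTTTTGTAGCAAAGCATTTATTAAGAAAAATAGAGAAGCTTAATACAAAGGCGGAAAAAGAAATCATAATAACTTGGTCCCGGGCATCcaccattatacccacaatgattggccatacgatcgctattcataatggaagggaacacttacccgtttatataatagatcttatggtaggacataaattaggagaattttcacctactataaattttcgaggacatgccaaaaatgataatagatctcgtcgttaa
The rps19 entry had 163 FPKM in mom1, 123 FPKM in pial2 and 175 FPKM in mom1pial2, against 221, 225 and 225 FPKM in WT in the 3 tables. The next genes, rpl2 and rpl23, lie wholly inside the repeat and were listed at 0 in every library.

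The NDH complex carries electrons back from photosystem I into the thylakoid chain. Its median log2 ratio was -0.25 in mom1, -0.30 in pial2 and -0.15 in mom1pial2 over 10 entries, with 9, 9 and 6 of them below 0. Summed fragments, over 8 entries without ndhJ and ndhK, gave lower log2 ratios. They were -0.42 (-0.56 to -0.28), -0.67 (-0.81 to -0.52) and -0.41 (-0.55 to -0.27) in the same order. The ndhC entry alone held 457 of the 1035 WT fragments in these sums. The ndhC entry, a membrane subunit, was the only organellar entry with an authors' q below 0.05 in all 3 tables, which share their WT library. It had 55.1 FPKM in mom1 against 95.3 FPKM in WT (q = 0.0394 in the authors' deposited table). In pial2 it had 44.2 FPKM against 97.0 FPKM in WT (q = 1.14e-05 in the authors' deposited table), and in mom1pial2 it had 49.4 FPKM against 97.2 FPKM in WT (q = 0.00287 in the authors' deposited table). In fragments it had 249, 197 and 206 in those mutants against 457 in WT.

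The genes ndhJ and ndhK are the neighbours of ndhC in its cluster. The ndhJ entry had 140 FPKM in pial2 against 218 FPKM in WT (q = 0.00518 in the authors' deposited table) and was not called in mom1 (q = 0.216) or mom1pial2 (q = 0.585 in the same authors' deposited table). The ndhK entry had 205 FPKM in pial2 against 276 FPKM in WT (q = 0.162 in the authors' deposited table). The 7 NDH entries of the small single-copy region lay far lower in level, from 2.11 FPKM (ndhD) to 4.49 FPKM (ndhE) in WT in the mom1 table. The ndhF entry, in that region, had 2.94 FPKM in pial2 against 3.73 FPKM in WT. The ndhE entry had the highest ratio of the complex in pial2, 0.30 on the log2 scale from 17 fragments in pial2 against 14 in WT. In mom1 and mom1pial2 the highest was ndhI, at log2 ratios of 0.02 and 0.38, with 22 and 29 fragments against 23 in WT before scaling for depth. Both copies of ndhB, a gene of the inverted repeat, were at 0 in every library.

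Photosystem I genes had medians of 0.05 in mom1, -0.03 in pial2 and 0.05 in mom1pial2 over 5 entries. Their summed fragments, over 4 entries, gave log2 ratios of 0.04 (-0.06 to 0.14), -0.43 (-0.54 to -0.32) and -0.20 (-0.30 to -0.09) in the same order, with most of the fragments in psaA, psaB and psaJ. The genes psaA and psaB encode the 2 proteins of its reaction centre. The psaA entry had 8.87 FPKM in mom1 against 8.72 FPKM in WT, 5.63 FPKM in pial2 against 8.87 FPKM in WT, and 7.18 FPKM in mom1pial2 against 8.89 FPKM in WT. Only the pial2 value was called (log2 ratio -0.57, q = 0.0265 in the authors' deposited table). The psaB entry had 394 fragments in pial2 against 621 in WT, a log2 ratio of -0.51 (q = 0.0622 in the authors' deposited table). The psaJ entry was high in all 4 libraries, with 3301 FPKM in mom1, 3245 FPKM in pial2 and 3432 FPKM in mom1pial2, against 3250 to 3314 FPKM in WT. The psaI entry had 44.9 FPKM in mom1, 22.8 FPKM in pial2 and 48.7 FPKM in mom1pial2 and was listed at 0 in WT, and none of these was called (authors' deposited table, q of 0.697 to 0.771). At the 114 bp of psaI, petG and rpl36, 1 fragment was worth 21.2 FPKM in WT. The psaC entry, the iron-sulphur subunit, had 5, 7 and 9 fragments in mom1, pial2 and mom1pial2 against 3 in WT.

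Photosystem II genes had a median of -0.03 in mom1, -0.48 in pial2 and -0.13 in mom1pial2 over 15 entries, and 12 of the 15 lay below 0 in pial2. Their summed fragments gave log2 ratios of 0.01 (-0.06 to 0.07), -0.38 (-0.45 to -0.31) and -0.17 (-0.24 to -0.10) in the same order. The psbA entry had 29.8 FPKM in mom1 against 28.2 FPKM in WT, 24.9 FPKM in pial2 against 28.7 FPKM in WT, and 27.9 FPKM in mom1pial2 against 28.7 FPKM in WT. None of these psbA differences was called. The genes psbD and psbC, for the D2 protein and an antenna protein, share an interval; psbC had 690 fragments in pial2 against 1032 in WT. The psbI entry, a small subunit, was the only called entry of the complex: it had 873 FPKM in pial2 against 2321 FPKM in WT, from 32 and 90 fragments in that order (q = 0.00527 in the authors' deposited table). In mom1 and mom1pial2, psbI had 72 and 69 fragments. The genes psbT, psbL, psbF, psbN and psbH, which supplied the other ratios past 2-fold in the complex, had between 2 and 11 fragments in WT. The psbK entry had the lowest ratio of the complex in mom1, with 43 fragments against 73 in WT, and was not called.

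The cytochrome b6f complex passes electrons between the photosystems. The petA entry, which encodes cytochrome f, had 7.08 FPKM in mom1 against 9.02 FPKM in WT, 4.46 FPKM in pial2 against 9.17 FPKM in WT, and 5.41 FPKM in mom1pial2 against 9.19 FPKM in WT. The pial2 value was called (log2 ratio -0.90, q = 0.00386 in the authors' deposited table). The petL entry was listed at 0 in pial2 and mom1pial2, with 2 fragments in mom1 and 3 in WT, and petG had 12 fragments in mom1 against 3 in WT. The petN entry had 5, 1 and 1 fragments in mom1, pial2 and mom1pial2 against 2 in WT. The ratios past 2-fold in this complex came from those 3 short genes, and none was called. The petB entry had 38 fragments in pial2 against 57 in WT.

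All 6 ATP synthase entries lay below 0 in pial2 (median -0.36), 3 of 6 did in mom1 (median -0.08) and 5 of 6 did in mom1pial2 (median -0.05). ATCG00470 and ATCG00480 share the interval of atpB and atpE. ATCG00480 had 265 FPKM in mom1 against 327 FPKM in WT, 169 FPKM in pial2 against 333 FPKM in WT, and 252 FPKM in mom1pial2 against 333 FPKM in WT, and its pial2 value was called (q = 0.00244 in the authors' deposited table). ATCG00470 had 790 FPKM in pial2 against 1000.2 FPKM in WT (q = 0.816 in the authors' deposited table). How Cuffdiff divided the fragments of the shared interval between the 2 entries was not tested. The atpH entry, the ring subunit, had the ratio closest to 0 of the complex in pial2 on the log2 scale, with 84 fragments against 90 in WT. In mom1 it had the highest ratio of the complex, with 103 fragments against 90 in WT. The highest ratio in mom1pial2 was that of atpI (log2 ratio 0.12), with 226 fragments against 233 in WT before scaling for depth.

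The rbcL entry, the large subunit of Rubisco, stood at 38.1 FPKM in mom1 against 27.9 FPKM in WT, 27.2 FPKM in pial2 against 28.4 FPKM in WT, and 28.7 FPKM in mom1pial2 against 28.4 FPKM in WT. Among chloroplast entries of 1000 bp or more it had the second-highest ratio in mom1 (log2 0.44, q = 0.34 in the authors' deposited table), after accD. In pial2 its log2 ratio was -0.06, above the chloroplast median.

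The plastid RNA polymerase genes rpoB, rpoC1 and rpoC2 form a cluster of their own apart from rpoA. All 4 subunit entries lay below 0 in each table, at medians of -0.27 in mom1, -0.15 in pial2 and -0.33 in mom1pial2. The rpoB entry had 538 fragments in mom1, 632 in pial2 and 484 in mom1pial2, against 730 in WT, so pial2 was the highest of the 3 mutants. Its log2 ratio was -0.11 in pial2 and -0.37 in mom1pial2, and no rpoB difference was called. The lowest in level was rpoC2, with 1.81 FPKM in mom1 against 2.31 FPKM in WT, 1.98 FPKM in pial2 against 2.35 FPKM in WT, and 1.74 FPKM in mom1pial2 against 2.35 FPKM in WT. The rpoA entry, in the ribosomal cluster, was instead lowest in pial2, with 392 fragments against 699 in WT (q = 0.00301 in the authors' deposited table).

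No ribosomal protein gene outside the cluster was called. The rps14 entry had 119 FPKM in pial2 against 170 FPKM in WT, and rpl20 was above 0 in all 3 tables, with log2 ratios of 0.19 in mom1, 0.21 in pial2 and 0.16 in mom1pial2. The rpl32 entry lay slightly above WT in all 3 tables without a call, with 12507 FPKM in mom1 against 11222 FPKM in WT, 12075 FPKM in pial2 against 11419 FPKM in WT, and 13160 FPKM in mom1pial2 against 11442 FPKM in WT. The 11 small-subunit entries had medians of -0.36 in mom1, -0.59 in pial2 and -0.23 in mom1pial2, with 10, 11 and 11 below 0. The rps2 entry had the highest ratio of them in mom1 and pial2, with 46 fragments in pial2 against 53 in WT.

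Among the other plastid proteins, ycf1, a very long reading frame whose product belongs to the import machinery of the inner envelope, had 19.2 FPKM in mom1 against 29.8 FPKM in WT (log2 ratio -0.61, q = 0.0146 in the authors' deposited table). In pial2 ycf1 had 19.7 FPKM against 30.3 FPKM in WT (q = 0.00865 in the authors' deposited table), and in mom1pial2 24.0 FPKM against 30.4 FPKM in WT (q = 0.656 in the authors' deposited table). The clpP entry, a protease subunit, had 404 fragments in mom1, 449 in pial2 and 423 in mom1pial2, against 499 in WT, and was not called. The accD entry, a subunit of acetyl-CoA carboxylase for fatty acid synthesis, ran the other way: it had 54 fragments in mom1, 46 in pial2 and 42 in mom1pial2, against 28 in WT. No accD difference was called (authors' deposited table, q of 0.423 to 0.898). The ycf3 entry, an assembly factor of photosystem I, had the lowest ratio of the group in mom1 and mom1pial2, with 33 and 39 fragments against 66 in WT.

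Of the 36 entries matched to a plastid tRNA, 33 were at 0 in all 4 libraries of the second set. Unnamed chloroplast entries, all at 0, are not counted here and may include further tRNA. The 3 with a value are all trnS. ATCG00090 had 3007 FPKM in mom1, 508 FPKM in pial2 and 4615 FPKM in mom1pial2, against 6608, 6724 and 6738 FPKM in WT in the 3 tables. The pial2 value was called (log2 ratio -3.72, q = 0.0219 in the authors' deposited table), yet it rested on at least 2 fragments in pial2 against 28 in WT. ATCG00370 was at 596 FPKM in mom1 and 646 FPKM in mom1pial2, and was listed at 0 in pial2 and WT. Plastid rRNA was nearly unseen: 5 of 7 entries were at 0, and the entry for the large rRNA, rrn23S, had 5 fragments in WT. Summed over the 2 entries with a value, there were 5 fragments in mom1, 16 in pial2 and 5 in mom1pial2, against 7 in WT. The log2 ratio of these sums in pial2 was 1.27 (-0.09 to 2.80), above 0 with an interval that includes 0.

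Chloroplast entries at 0 in the second set, apart from tRNA, were largely those whose sequence is not unique. For each entry with a known sequence, the share of its 50-base windows found a second time in the nuclear, chloroplast or mitochondrial genome was counted, on either strand. Of the 55 chloroplast entries at 0, 36 had at least 90% of windows elsewhere, against 2 of the 78 with a value; those 2 were rrn23S and ATCG01180, an rRNA entry of the same length. Setting aside the entries matched to tRNA, 20 of 22 entries at 0 had at least 90%. The 22 include 7 unnamed entries whose type of RNA was not assigned. They include both copies of rpl2, rpl23, ycf2, ndhB and rps7, which lie in the inverted repeat. The 2 exceptions, ATCG00030 and ATCG01000, are unnamed and share intervals with matK and ndhF. Unnamed entries in a shared interval were given the windows of the whole interval. The shares for ATCG00030 and ATCG01000 are therefore not those of their own sequences, which were not measured. The 33 tRNA entries at 0 divided, with 16 of them under 50%.

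**Figure D4:**
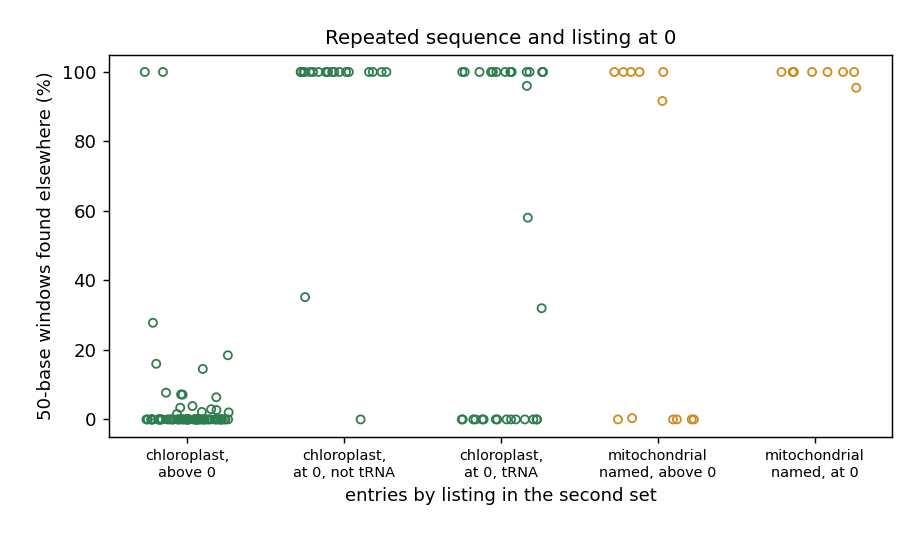
Share of 50-base windows of each entry found a second time in the 3 genomes (vertical axis, %), for entries above 0 and at 0 in the second set, with tRNA entries at 0 shown apart and only named mitochondrial entries included. Chloroplast entries above 0 lie under 30% apart from 2 rRNA copies. Chloroplast entries at 0 that were not matched to tRNA lie at 100% apart from 2 unnamed entries. Those 2 were given the windows of a whole interval shared with another entry.

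In the mitochondrion, 23 entries could be given a name and 20 of these a sequence, so most of the 84 entries at 0 could not be assessed. All 8 named entries at 0 with a sequence had at least 90% of windows elsewhere, against 6 of the 12 with a value. They include cob, the cytochrome b of complex III, atp8, rps4, rps7 and rps12. Nuclear chromosome 2 carries a long insertion of mitochondrial DNA, and the first 60 coding bases of cob, shown because they are identical in both genomes, lie there at chr2:3450863-3450922 on the plus strand inside AT2G07727.
cob: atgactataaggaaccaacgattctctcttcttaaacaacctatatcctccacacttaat
No entry was matched to nad5, which is not analysed here. The atp1 entry was near 0, with 3 fragments in mom1 and in WT and none in pial2 and mom1pial2.

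Measured mitochondrial entries were few, 19 to 22 per table. Their median log2 ratio was -0.40 in mom1 (17 of 22 below 0), -0.50 in pial2 (16 of 19) and -0.35 in mom1pial2 (17 of 20). Fragments summed over 45 entries were 338 in mom1, 401 in pial2 and 336 in mom1pial2, against 558 in WT. After scaling, these gave log2 ratios of -0.64 (-0.84 to -0.44), -0.40 (-0.58 to -0.21) and -0.56 (-0.76 to -0.36). Between mom1pial2 and pial2 the mitochondrial ratio was -0.16 (-0.38 to 0.05), and the interval includes 0. Between pial2 and mom1 it was 0.24 (0.03 to 0.45) over entries with recovered fragments, where the chloroplast ratio of the same pair was below 0. The sums leave out 5 entries above 0 in WT whose fragments were not recovered, among them ATMG00030, ATMG00020 and rrn18. Those named had lower FPKM in pial2 than in mom1 (values below). The mitochondrial share of summed FPKM was 0.078% in mom1 and 0.045% in pial2, so the order of these mutants depended on the measure.

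ATMG00030, an entry without a name in the sources used here, had 318 FPKM in mom1 against 398 FPKM in WT, 224 FPKM in pial2 against 405 FPKM in WT, and 231 FPKM in mom1pial2 against 405 FPKM in WT. It was called in pial2 (q = 4.44e-05 in the authors' deposited table) and in mom1pial2 (q = 0.00105 in the authors' deposited table). ATMG00020, next to it by number, was also without a name in the sources used here, and its type of RNA was not assigned. It had 51.6 FPKM in mom1 against 66.4 FPKM in WT, and 40.5 FPKM in pial2 against 67.6 FPKM in WT. In mom1pial2 it had 53.7 FPKM against 67.7 FPKM in WT. It was called in pial2 (q = 6.4e-04 in the authors' deposited table). The mitochondrial counts of calls, all lower in the mutant, were thus 0 of 37 tested in mom1, 2 of 38 in pial2 and 1 of 36 in mom1pial2, against the 1.36%, 1.6% and 1.16% of all entries.

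Only 2 entries, rrn18 and rrn5, were matched to mitochondrial ribosomal RNA. Entries without a name, ATMG00020 and ATMG00030 among them, were not sorted by type of RNA and may include further rRNA. The rrn18 entry had 113 FPKM in mom1 against 114 FPKM in WT, and 89.8 FPKM in pial2 against 116 FPKM in WT. In mom1pial2 it had 102 FPKM against 117 FPKM in WT, and it was not called in any mutant. The rrn5 entry had 12, 4 and 12 fragments in mom1, pial2 and mom1pial2, against 13 in WT. The named protein genes were low: cox1, of cytochrome c oxidase, had 21, 25 and 25 fragments against 35 in WT, and nad9, of complex I, had 13, 18 and 15 against 13 in WT. The atp4 entry, of the ATP synthase, had 9, 5 and 10 fragments against 22 in WT (q = 0.111 for pial2 in the authors' deposited table). Among named protein genes the highest in level was atp9, of the same complex, with 42, 60 and 45 fragments against 68 in WT. The ccmB entry, of cytochrome c maturation, had 10, 10 and 12 fragments against 19 in WT. Past 2-fold, 1 of 22 mitochondrial entries was lower and 1 higher in mom1, where 0.997% and 1.18% of all entries measured were. In pial2, 2 of 19 were lower and 0 higher (0.847% and 0.736% of all entries), and in mom1pial2, 2 of 20 were lower and 0 higher (0.862% and 1.08%). None of these was called. The higher one, ATMG00360, was at 80.7 FPKM in mom1 and listed at 0 in pial2, mom1pial2 and WT. The lower ones were ATMG00630 in mom1 (0 fragments against 5 in WT), atp4 and rrn5 in pial2, and ATMG01120 and ATMG01350 in mom1pial2 (0 fragments each, against 3 and 8 in WT).

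Organellar RNA could not be read in the first set. Nuclear copies of mitochondrial genes are described here, and whether their values follow organellar RNA was not tested. The tables hold 55 nuclear entries of chromosome 2 that the annotation pairs with a mitochondrial gene. Their summed FPKM was 27.0 in mom1 replicate 1, 26.9 in pial1/2 and 21.5 in nrpe1, against 24.5 in WT replicate 1. In the second set it was 10.2 in mom1 replicate 2, 10.0 in pial2 and 9.20 in mom1pial2, against 11.7 in WT replicate 2. These sums did not overlap between the 2 sets. FPKM were scaled separately in each table, so the gap between sets is a description of levels only. A large part of the gap lay in AT2G07732 alone, and sums over other nuclear entries were not compared between sets. The entry AT2G07732, paired with ATMG00280, had 10.8, 8.69 and 6.69 FPKM in mom1 replicate 1, pial1/2 and nrpe1 against 7.51 FPKM in WT replicate 1. In the second set it had 0.0860, 0.0871 and 0 FPKM in mom1 replicate 2, pial2 and mom1pial2, against 0.0809 FPKM in WT replicate 2.

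**Figure D5:**
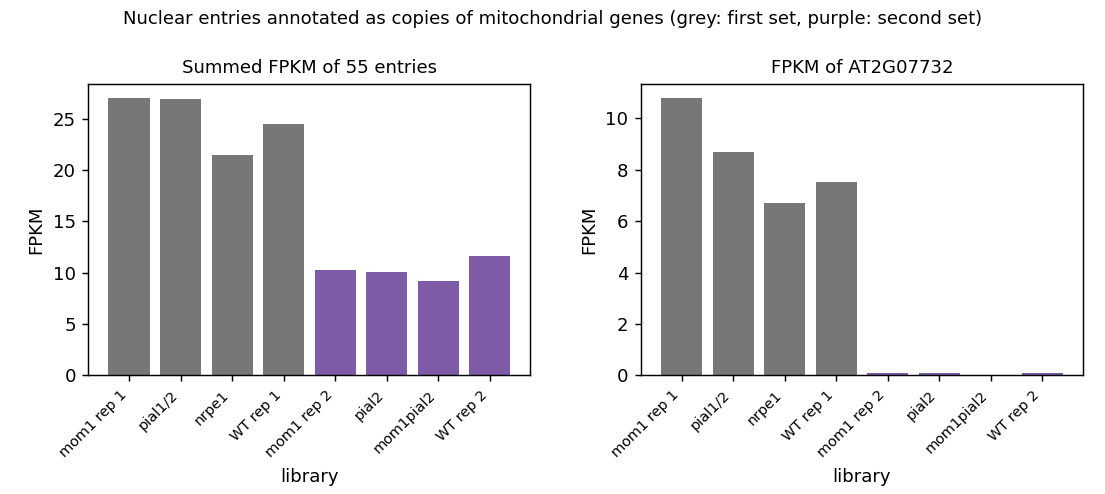
Summed FPKM of the 55 nuclear entries paired with mitochondrial genes (left) and FPKM of AT2G07732 alone (right), 1 bar per library, with WT taken from the mom1 tables. First-set libraries (grey) lie between 21.5 and 27.0 in the sum and second-set libraries (purple) between 9.20 and 11.7.

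Nuclear genes that work on organellar RNA were placed beside these values. The 12 proteins associated with the plastid RNA polymerase had a median log2 ratio of 0.24 in mom1, 0.43 in pial2 and 0.22 in mom1pial2, against a nuclear median of 0.01 in each table. Of the 12, 3 were called higher by the authors in pial2 and 0 in mom1 or mom1pial2, while 0.979%, 0.844% and 0.824% of all entries were called higher in mom1, pial2 and mom1pial2. The 3 were PDE312, with 46.1 FPKM in pial2 against 30.3 FPKM in WT, FLN1, with 43.7 FPKM against 29.9 FPKM, and TRX z, with 69.8 FPKM against 46.9 FPKM. Their q-values in the authors' deposited table were 0.0107, 0.0318 and 0.0229. None of the 6 sigma factors, the 3 phage-type organelle polymerases and the 7 genes of organelle RNA decay and polyadenylation was called in any second-set table. Their medians in pial2 were 0.00, 0.18 and 0.09.

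The 19 nuclear genes for photosynthetic subunits had medians of 0.12 in mom1, 0.06 in pial2 and 0.06 in mom1pial2, with no call. In pial2 their log2 ratios ran from -0.25 (PSAD-2) to 0.69 (RBCS1B, a small subunit of Rubisco whose close paralogs may share reads). The 11 respiratory genes had medians of 0.02, -0.06 and 0.02, with 1 called lower in pial2. That gene, AT3G15640, had log2 ratios of -0.57 in mom1, -0.67 in pial2 (q = 0.00223 in the authors' deposited table) and -0.51 in mom1pial2. In mom1, where both replicates could be used, limma over 20466 nuclear entries called 0 genes of these 6 lists and 18 of all entries, every one higher (0.088%); without pairing by table it called 0 in all. Over both mom1 tables the median of the polymerase-associated proteins was 0.15, and it was 0.04 in replicate 1 and 0.24 in replicate 2. In simulated data the fit recovered 0 of 50 genes changed 2-fold and 45 of 50 changed 4-fold, so shifts of the size seen here were beyond it.

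Markers of tissue and of RNA selection were set beside the pial2 values. The 7 green tissue markers summed to 38774 FPKM in pial2 against 42355 FPKM in WT, with a median log2 ratio of -0.12, and none was at 0. In mom1 they summed to 46604 FPKM against 41625 FPKM in WT, and in mom1pial2 to 39675 FPKM against 42441 FPKM in WT. The 3 root markers summed to 31.5 FPKM in pial2 against 47.1 FPKM in WT, with 1 called lower (PRP3, also lower in mom1). Of 4 flower markers, 1 was measured and none was called. The cytosolic rRNA entry AT3G41768, an RNA without a long A tail, had 162 FPKM in mom1, 127 FPKM in pial2 and 147 FPKM in mom1pial2, against 155, 158 and 158 FPKM in WT. In first-set libraries it had 27.6 FPKM in mom1 replicate 1, 25.2 FPKM in pial1/2 and 19.9 FPKM in nrpe1, against 21.3 FPKM in WT replicate 1. Across 39 chloroplast protein entries of 300 bp or more in 1 library, Spearman's rho between the longest run of A in the interval and WT FPKM was -0.17, given as a description. Over the same entries, rho between WT FPKM and the log2 ratio was -0.44 in mom1, -0.55 in pial2 and -0.50 in mom1pial2. The ratio has the WT value as its denominator, so the 2 are not independent. The part of tissue makeup and of carry-over of untailed RNA in the organellar ratios was not tested.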

How the data were processed

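The authors' deposited tables hold 1 Cuffdiff comparison each, with FPKM for a WT and a mutant library and a p-value and q-value per gene, per the file headers. Per the submitters' processing notes, TopHat2 2.0.12 with Bowtie, Cufflinks 2.2.1 and Cuffdiff were used on TAIR10; read length, strand and total fragments are not given in the sources used here. Because WT is rescaled in each table, ratios were taken within a table, on log2(FPKM + 1) with at least 1 FPKM in either library. Chloroplast names came from RefSeq entries with the same start and end (114 of 133 entries; 118 named in all). The RefSeq mitochondrial genome is not the build of the files, so 23 names came from annotation notes (16) or a unique length (7), and no mitochondrial positions are given.

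Fragment numbers are the smallest whole numbers giving the FPKM ratios of all 3 second-set tables within 3e-05, scaled where possible to the worth of a fragment at that length (94 of 112; for the other 18 they are minima). The search for WT numbers had an upper limit, so entries with very many fragments could be missed. On simulated data with WT numbers below that limit, 298 of 300 smallest sets were right. Scaling to length was not simulated, so the absolute numbers were not tested. Limma 3.58.1 in R 4.3.3 fitted the 2 within-table mom1 ratios of nuclear entries, with Benjamini-Hochberg adjustment; LHCB1.3, listed with excess data, was left out. The rest was computed in Python 3.11.15 (scipy 1.17.1, pandas 2.3.3, numpy 2.4.6). Named entries were the highest and lowest in level and ratio of each complex, those called or past 2-fold (up to 15 per table), and psbA, rbcL, psaA, psaB, ndhF, rpoB, ycf1, clpP, accD, cox1, cob, atp1 and nad5. Counts and sums cover all members, of which 2 are not reported here by name. The members and lists were chosen with earlier results of these data known. Labels do not say whether the mom1 libraries came from separate cultures, so p-values measure the spread between libraries, which may be technical.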

Additional observations from a re-analysis of the deposited data

How the results depend on the processing

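No paired analysis was possible because organellar entries with a value in all 4 mom1 and WT libraries number 0; for nuclear entries limma called 18 with the replicate block and 0 with no replicate block. Chloroplast medians kept their sign under every alternative run, from -0.21 to -0.15 in mom1, -0.48 to -0.35 in pial2 and -0.23 to -0.15 in mom1pial2, including entries of 300 bp or more, added after seeing the data. Mitochondrial medians kept their sign but not their size. With no filter they were -0.09 in mom1, -0.16 in pial2 and -0.19 in mom1pial2, and over the 5 entries with little sequence in other genomes -0.03, -0.45 and -0.19. Counts past 2-fold depended on the rule. By the authors' q they were 2 (mom1) and 1 (mom1pial2) for the chloroplast and 0 (mom1) and 1 (mom1pial2) for the mitochondrion. Past 1.5-fold they were 14, 28 and 13 chloroplast and 10, 6 and 4 mitochondrial entries in mom1, pial2 and mom1pial2. With a pseudocount of 0.1 FPKM they were 7, 4 and 4 mitochondrial entries. The organellar share of summed FPKM, mutant minus WT, was -0.40, -1.23 and -0.18 percentage points in mom1, pial2 and mom1pial2. Without the entries matched to rRNA or tRNA it was -0.13, -0.61 and -0.048. Unnamed entries, ATMG00020 among them, stayed in that share. Medians of the 6 nuclear lists in mom1 ran from -0.08 to 0.24 when 1 replicate was left out, and the signs of 5 of them differed between replicates. Depth limits the mitochondrial values, with 31 of 45 entries under 10 fragments in WT. The cause of these differences was not tested.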
